A study of Mus musculus with 5 samples.

Results

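Gene expression was compared between Th1 cells that had been rested without receptor stimulation and stimulated Th1 cells, on 2 of the 5 arrays of a study of cultured mouse CD4 T cells. The pair was chosen by the titles of the samples, rested and Th1, with 1 array each. The rested cells were Th1 cells kept for 4 further days in IL-2 with antibodies against IFN-g and IL-4 and without anti-CD3/CD28, which makes 8 days of culture in all. The Th1 cells came from splenic naive CD4 T cells of C57BL/6 mice after 4 days of anti-CD3/CD28 stimulation with IL-12, IL-2 and anti-IL-4. All cultures of the study carried IL-2 and the IL-4 block. The rested and Th1 cultures differed in receptor stimulation, in IL-12, in the block of IFN-g and in the days of culture, and these cannot be told apart. The remaining arrays, used here only for levels, were Th1+TGFb (Th1 cells moved for 4 days into medium with anti-CD3/CD28, TGF-b and the block of IFN-g and IL-4), Th1reg (rested cells moved into that medium) and iTreg (naive cells cultured in it). The labels do not say how many mice gave the cells, how pure they were or whether cultures were pooled.

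A T cell that meets its antigen leaves quiescence: receptor and CD28 signals switch on immediate-early transcription factors, then Myc and mTOR drive growth, and the cell divides many times in a few days. When the signal ends, the cell can return to rest. Resting T cells keep transcription factors of the KLF, FOXO and TCF families, express receptors that guide them through lymph nodes and blood, and have small cytoplasm and low rates of protein and lipid synthesis. Th1 cells are the helper lineage defined by the factor T-bet and the cytokine IFN-gamma. A rested Th1 cell is known to keep the ability to make IFN-gamma again when its receptor is engaged.

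Values are Agilent processed signals divided by the 75th percentile of the array, so a scaled signal of 1 is that percentile, and a difference is log2 of rested over Th1. With 1 array per culture there was no test and no spread between cultures. Repeat spots of a probe gave a technical SD of 0.095 log2 units for a difference. Of 21366 genes with a value, 13224 were well above background on at least one of the arrays, 11293 of them on both. Among these, 2322 genes were at least 2-fold higher on the rested array (17.6%) and 3502 were at least 2-fold lower (26.5%), while 7400 lay within 2-fold. The median difference was -0.28 over all genes measured. A gene whose signal was not well above background on one array has only a bound, written as at least N-fold, and genes below that mark on both (called dim) are not counted as measured. The counts depend on how the arrays are scaled, so each was repeated with 3 other scalings, spike-in probes among them, and the counts that hold under all 4 are given for most lists. Under all 4 scalings 593 genes were 2-fold higher on the rested array (4.48%) and 1914 were 2-fold lower (14.5%). These counts are set by the strictest scaling of each side. For higher genes that was the spike-ins, which shifted differences by -1.17 log2 units. For lower genes it was the 75th percentile of detected probes, which shifted them by 0.53. Higher genes thus met a stricter cut-off than lower genes, here and in each list. Because total RNA of a bulk culture was measured, fewer cells of a type and less RNA per cell cannot be told apart.

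Genes of T cell identity lay close together under the main scaling. Cd3e, a subunit of the T cell receptor complex, had a scaled signal of 155 on the rested array against 139 on the Th1 array, and Cd4 had 51.1 against 41.1. Of 27 genes of the receptor complex and its proximal signalling, 1 was at least 2-fold higher and 2 were lower on the rested array, with a median of 0.16. With spike-ins the median was -1.01 and 14 of the 27 were 2-fold lower, Cd3e among them at -1.01, with Cd4 at -0.86. The member that stood higher was Rasgrp1, an activator of RAS, at 12.7 against 6.34, just past the 2-fold line. Malt1, a protease of the NF-kappaB pathway, was 3.32-fold lower on the rested array, and the surface receptor gene Cd6 was 2.04-fold lower, with -0.98 log2 units at its other probe. Under all 4 scalings none of these genes was higher and 1 was lower.

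**Figure D1:**
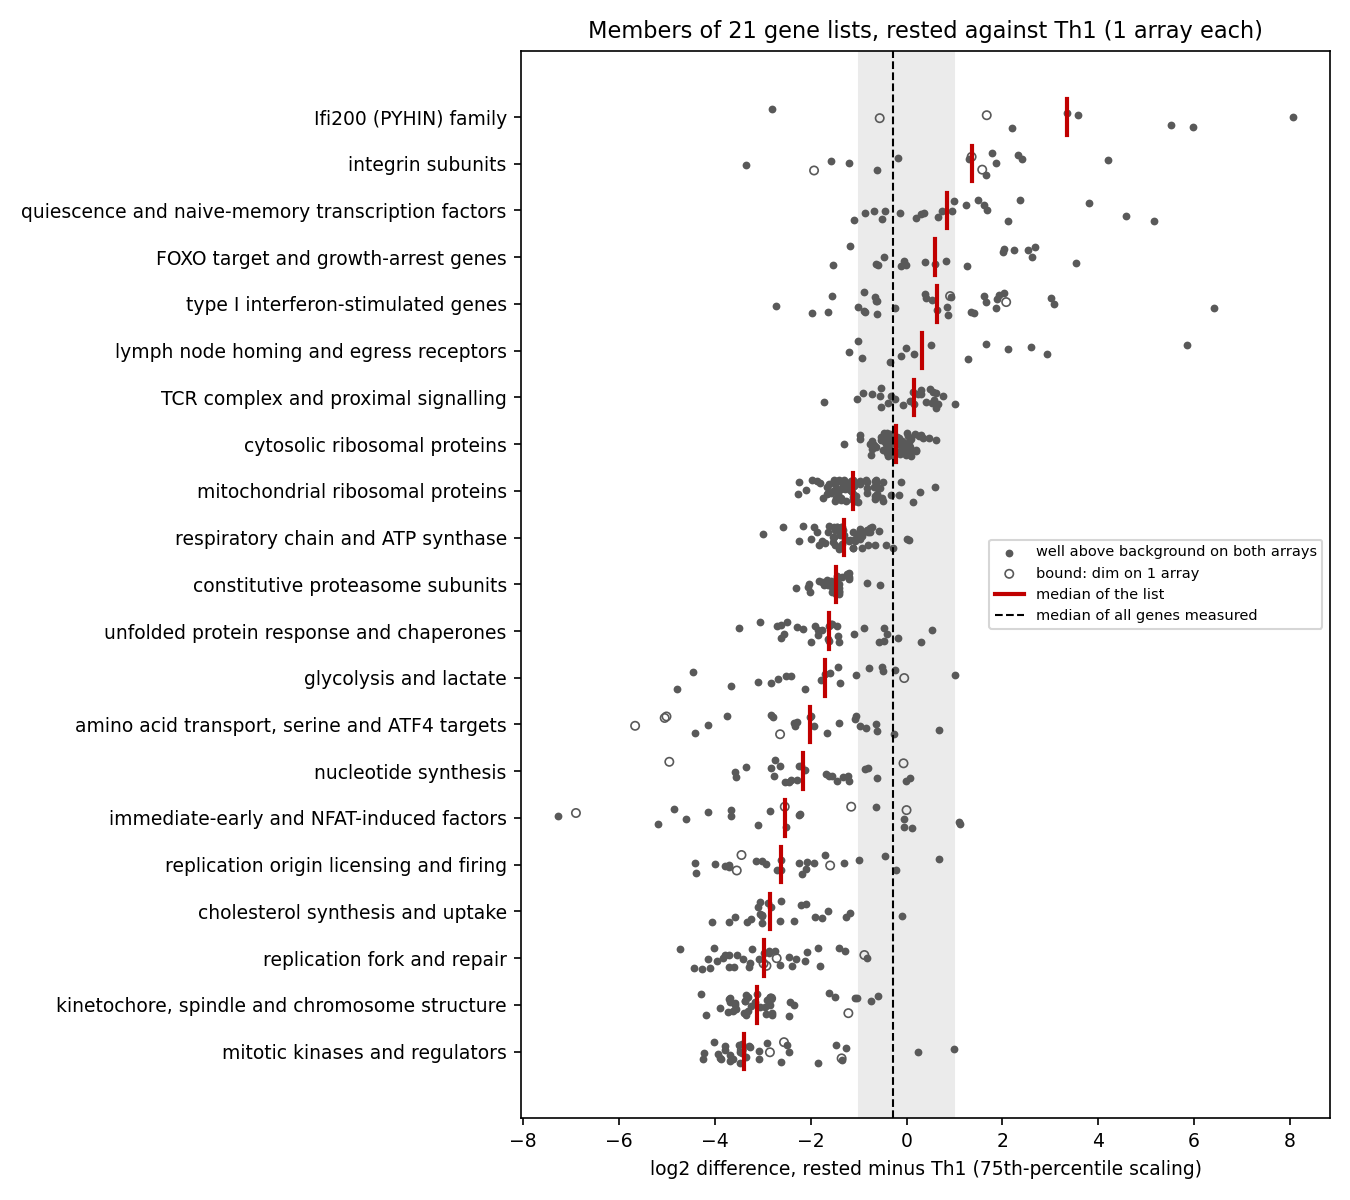
Log2 difference, rested minus Th1, of the measured members of several gene lists, 1 point per gene, with the red tick at the median of the list. Open circles are bounds, the grey band marks less than 2-fold, and the dashed line is the median of all genes at -0.28. The lists of mitosis, DNA replication and cholesterol synthesis lie to the left of the band almost whole, cytosolic ribosomal proteins lie within it but for 1, and the Ifi200 family reaches furthest to the right.

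The transcription factors of resting and naive T cells were split, with a few members far higher on the rested array. Of 22 measured factors, 9 were at least 2-fold higher and 1 was lower, with a median of 0.84. Klf2, which keeps T cells quiescent and drives their exit from lymphoid tissue, had a scaled signal of 51.5 on the rested array against 1.44 on the Th1 array, 35.8-fold higher. Klf3, a related repressor, had 15.97 on the rested array against 0.666 on the Th1 array (24.0-fold higher). Tcf7, which encodes the stem-like memory factor TCF-1, had 18.2 against 1.31 (13.97-fold higher), and its other probe gave a log2 difference of 4.30. Its partner Lef1 had 247 against 56.9, which is 4.34-fold higher. The glucocorticoid-induced gene Tsc22d3 was 5.14-fold higher on the rested array. Foxo1 and Bach2, which hold the naive and memory state, differed by less than 2-fold, at log2 differences of 0.95 and 0.66. Id3, an inhibitor of E proteins, was the member that went the other way, at 2.66 on the rested array against 5.69 on the Th1 array (2.14-fold lower). Under all 4 scalings 4 of the 22 factors were 2-fold higher and none was 2-fold lower. With spike-ins alone 4 were higher and 6 were lower.

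Genes that FOXO factors or growth arrest are known to induce showed 8 of 19 members at least 2-fold higher and 2 lower on the rested array, with a median of 0.60. Pik3ip1, an inhibitor of PI3-kinase, had 39.99 on the rested array against 3.44 on the Th1 array (11.6-fold higher). Bcl6, a transcriptional repressor, had 9.76 against 1.53 (6.39-fold higher). Txnip, which restrains glucose uptake, was 6.14-fold higher, and Pdcd4, an inhibitor of translation initiation, was 5.78-fold higher at 402 against 69.5. Cdkn1b, the CDK inhibitor p27 of resting cells, had 35.3 on the rested array against 8.68 on the Th1 array, 4.07-fold higher. Cdkn2d and Bcl2l11 stood 2.88-fold and 2.25-fold lower on the rested array, with -0.60 log2 units at the other probe of Bcl2l11. Bcl2l11 encodes the death factor BIM, itself a FOXO target in other settings. Under all 4 scalings 5 members were 2-fold higher and 1 was lower. With spike-ins alone 5 were higher and 8 were lower.

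Homing receptors did not move as one group. Of 14 genes, 6 were at least 2-fold higher and 2 were lower on the rested array, with a median of 0.33. Under all 4 scalings 3 were higher and none was lower. With spike-ins the median of the list was -0.84, with 3 genes 2-fold higher and 7 lower. S1pr1, the receptor for the lipid that draws T cells out of lymph nodes and a direct KLF2 target, had 33.0 on the rested array against 4.33 on the Th1 array (7.64-fold higher). S1pr4, another receptor of that lipid, was 4.33-fold higher. Il7r, the IL-7 receptor of resting and memory T cells, had 76.4 against 12.6 (6.04-fold higher). Vipr1, a neuropeptide receptor of naive T cells, had 59.8 on the rested array against 1.03 on the Th1 array, a log2 difference of 5.86, and its other probe gave 2.59. By contrast, Ccr7, a chemokine receptor of lymph node entry, had 171 on the rested array against 185 on the Th1 array. The adhesion gene Cd44 differed by 0.15 log2 units, and Itgal, a subunit of the integrin LFA-1, was 2.31-fold lower on the rested array. All 8 GIMAP genes, small GTPases of lymphocyte survival, were measured, with a median of 0.59 and 6 of them above 0. Gimap5 alone passed 2-fold, in the lower direction (2.04-fold), though not under all 4 scalings. With the 75th percentile of detected probes 5 were 2-fold higher and none was lower, and with spike-ins none was higher and 2 were lower. The autophagy and lysosome list was near zero under the main scaling, with 2 members higher and 1 lower of 30 and a median of 0.10. Of these, 1 lower member held under all 4 scalings. With spike-ins the median of this list was -1.07, with none higher and 16 lower. With the 75th percentile of detected probes it was 0.63, with 8 higher and 1 lower.

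**Figure D2:**
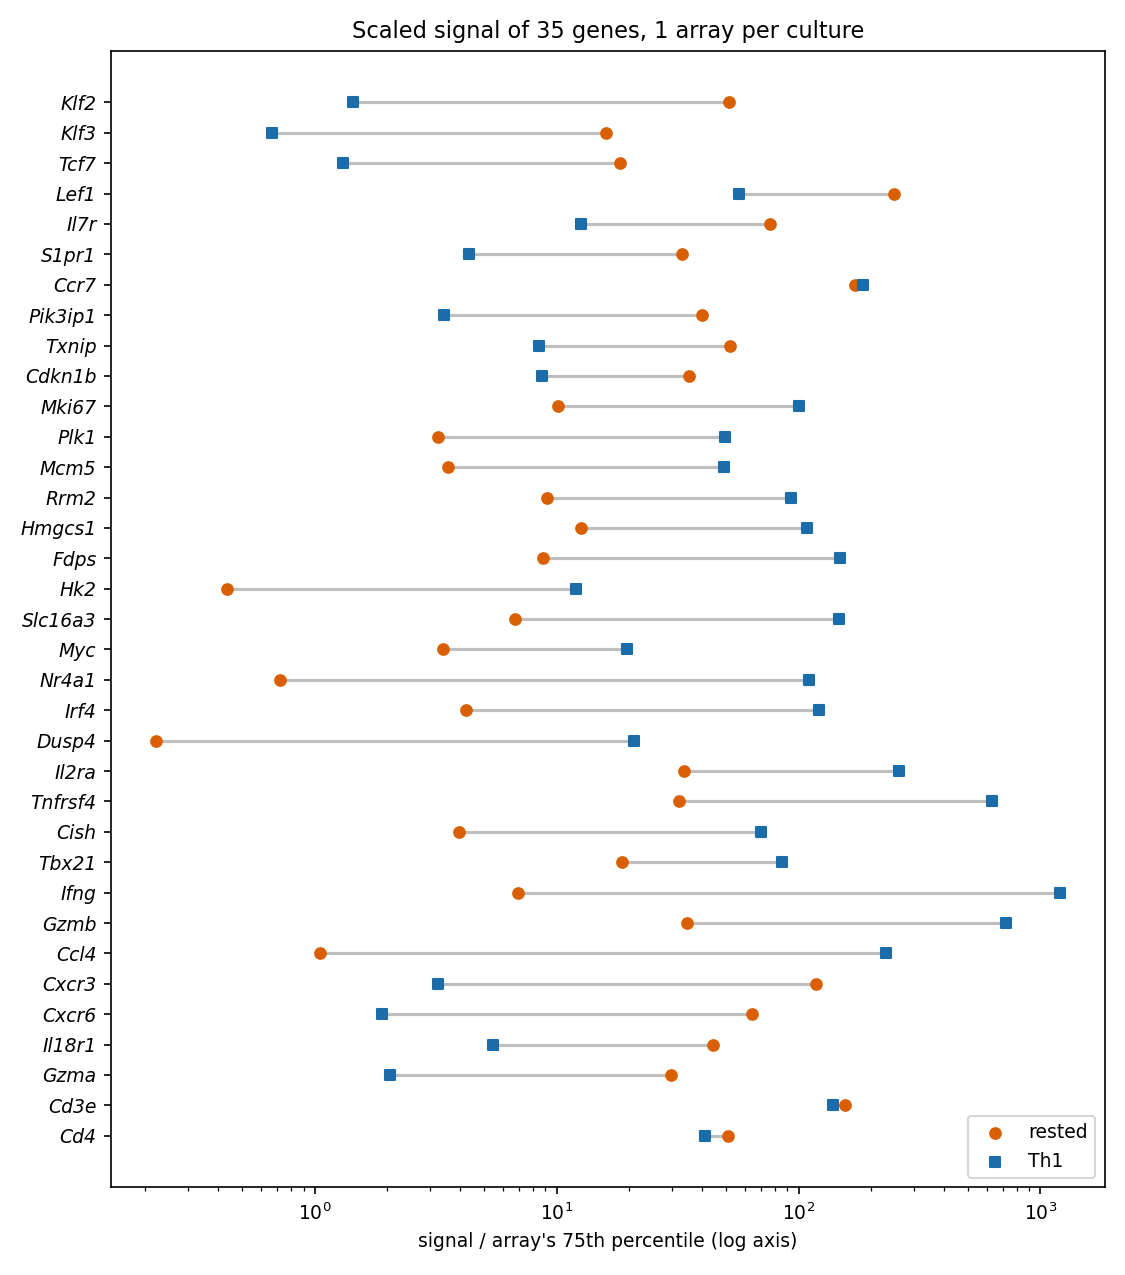
Scaled signal of genes named in the text on the rested array (orange circles) and the Th1 array (blue squares), on a log axis, 1 array each. Klf2, at 51.5 against 1.44, and Cxcr3, at 118 against 3.23, show the rested array on the right, Nr4a1 and Ifng show it far on the left, and Ccr7, Cd3e and Cd4 overlap or nearly so under this scaling.

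Genes of cell division were lower on the rested array throughout their stages. Of 36 mitotic kinases and regulators, 34 were at least 2-fold lower and none was higher, with a median of -3.39, and 30 were lower under all 4 scalings. Plk1, the kinase that drives mitotic entry, had a scaled signal of 3.24 on the rested array against 49.6 on the Th1 array (15.3-fold lower). Tpx2, which activates Aurora A at the spindle, was 19.0-fold lower, though its other probe gave a log2 difference of -0.79. The checkpoint kinase gene Bub1 was 18.8-fold lower, and Melk, a kinase of dividing cells, was 16.3-fold lower. Ccnb1, the mitotic cyclin B1, had 2.63 on the rested array against 22.4 on the Th1 array. Among 41 genes of the kinetochore, the spindle and chromosome structure, 39 were at least 2-fold lower on the rested array and none was higher, with a median of -3.13, and 35 were lower under all 4 scalings. Mki67, the standard proliferation marker, had 10.1 on the rested array against 100 on the Th1 array (9.86-fold lower), and its other probe gave -3.38. The kinetochore genes Spc24 and Ska1 were 19.5-fold and 18.3-fold lower.

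Promoters of mitotic genes often hold a CCAAT box, bound by NF-Y, together with a cell cycle homology region (CHR), through which the DREAM complex represses them in resting cells. RefSeq promoters of GRCm38.p6 (250 bases before to 50 after the start) were matched for 28 of the 37 listed mitotic regulators, and 19 of their 31 promoters (61.3%) held the CHR letters TTTGAA on either strand, against 17.9% of all 300-base promoters in the table. CCAAT stood in 23 of the 31 (74.2%), against 37.4% of all. For the kinetochore and spindle list 26 of 41 promoters (63.4%) held TTTGAA. These are letter matches and not shown sites. The promoters of Plk1, Ccnb2 and Mki67 hold both motifs and are printed 5′ to 3′ with each motif in capitals. They lie at chr7:122159185-122159484 (plus strand), chr9:70421505-70421804 (minus strand) and chr7:135716330-135716629 (minus strand).
Plk1: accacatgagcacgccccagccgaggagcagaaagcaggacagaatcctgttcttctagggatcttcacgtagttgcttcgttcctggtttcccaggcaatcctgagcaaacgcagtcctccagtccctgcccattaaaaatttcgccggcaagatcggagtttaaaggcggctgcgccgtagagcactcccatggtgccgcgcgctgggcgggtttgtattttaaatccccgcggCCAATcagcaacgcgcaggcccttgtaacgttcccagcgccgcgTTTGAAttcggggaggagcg
Ccnb2: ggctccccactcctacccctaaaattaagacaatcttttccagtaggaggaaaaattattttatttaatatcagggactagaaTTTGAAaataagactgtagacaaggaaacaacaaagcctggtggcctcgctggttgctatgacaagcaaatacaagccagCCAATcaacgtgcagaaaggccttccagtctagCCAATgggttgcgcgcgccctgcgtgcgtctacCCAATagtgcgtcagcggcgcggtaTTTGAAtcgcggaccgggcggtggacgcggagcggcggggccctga
Mki67: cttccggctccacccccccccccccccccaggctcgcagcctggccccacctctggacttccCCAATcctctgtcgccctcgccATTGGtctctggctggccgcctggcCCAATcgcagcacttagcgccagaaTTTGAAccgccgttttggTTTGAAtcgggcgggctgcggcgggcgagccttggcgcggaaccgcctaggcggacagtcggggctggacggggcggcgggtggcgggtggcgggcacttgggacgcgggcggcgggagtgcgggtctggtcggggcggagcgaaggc
Ccnb2, the mitotic cyclin B2, had 6.81 on the rested array against 66.0 on the Th1 array, and it was chosen here for its promoter after its values were seen.

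DNA replication showed the same direction. Of 26 genes that license and fire replication origins, 22 were at least 2-fold lower on the rested array, none was higher, and the median was -2.62, with 21 lower under all 4 scalings. Mcm10, which helps to start the replicative helicase, had 1.05 on the rested array against 22.4 on the Th1 array (21.3-fold lower). Gins2 and Gins1, subunits of that helicase, were 21.1-fold and 15.99-fold lower. Mcm5, a core helicase subunit, had 3.56 against 49.1 (13.8-fold lower). The loading factor gene Cdc6 was at least 10.9-fold lower, since its rested signal was not well above background. At the replication fork and in repair, 35 of 37 genes were lower and none was higher, with a median of -2.98, and 33 were lower under all 4 scalings. Rfc3, part of the clamp loader, had 0.300 against 7.98 (26.6-fold lower), and the nuclease gene Exo1 was 21.6-fold lower. Pcna, the sliding clamp, was 5.24-fold lower at 24.8 on the rested array against 130 on the Th1 array. Nucleotide synthesis had 22 of 28 genes lower and none higher, with a median of -2.16 and 18 lower under all 4 scalings. Shmt1, which supplies one-carbon units, was at least 30.9-fold lower, since its rested signal was not well above background. The other probe of Shmt1 gave a log2 difference of -2.53. Tk1 (thymidine kinase) was 11.9-fold lower, Rrm1 was 11.7-fold lower and Rrm2 was 10.2-fold lower, the last pair being subunits of ribonucleotide reductase.

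E2F factors bind promoters of replication genes. The E2F letters TTCCCGC stood in 10 of 25 promoters (40%) of the origin list, against 4.60% of all promoters, and TTGGCGC stood in 6 of 25 (24.0%), against 2.45% of all. At the fork, TTCCCGC stood in 13 of 38 promoters (34.2%). The Mcm5 promoter, at chr8:75109259-75109558 (plus strand), holds 2 copies of TTGGCGC on the opposite strand, set in capitals.
Mcm5: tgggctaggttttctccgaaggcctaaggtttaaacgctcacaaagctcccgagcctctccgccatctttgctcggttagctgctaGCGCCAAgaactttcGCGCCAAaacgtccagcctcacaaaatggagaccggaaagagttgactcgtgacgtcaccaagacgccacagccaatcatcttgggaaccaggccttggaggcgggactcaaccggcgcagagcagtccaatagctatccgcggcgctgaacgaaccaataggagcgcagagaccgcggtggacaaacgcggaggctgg

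G1 regulators went in several directions. Of 30 cyclins, CDKs, inhibitors and E2F and RB family genes, 2 were at least 2-fold higher on the rested array and 19 were lower, with a median of -1.43, and none was higher and 14 were lower under all 4 scalings. Cyclin D3 (Ccnd3), at 58.5 on the rested array against 247 on the Th1 array, was 4.22-fold lower, and cyclin D2 (Ccnd2) was 2.62-fold lower. E2f8 and E2f7, repressor E2Fs of late S phase, were 13.96-fold and 13.4-fold lower, although the other probe of E2f7 gave a log2 difference of 0.56. The CDK inhibitors did not move together: Cdkn1b (p27) was 4.07-fold higher, whereas Cdkn1a (p21) had 3.75 on the rested array against 38.1 on the Th1 array, 10.2-fold lower, with -0.71 at its other probe. Cdkn2b was higher at a low signal, 0.216 against 0.0964.

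Cholesterol synthesis was lower almost as a whole on the rested array. Of 24 genes of synthesis and uptake, 23 were at least 2-fold lower and none was higher, with a median of -2.85, and 21 were lower under all 4 scalings. Fdps, which makes farnesyl pyrophosphate, had 8.81 on the rested array against 148 on the Th1 array (16.8-fold lower). Cyp51, a lanosterol demethylase, was 13.0-fold lower, Hsd17b7 was 11.9-fold lower and Idi1, an isomerase of the mevalonate pathway, was 10.03-fold lower. Hmgcs1, the synthase before the rate-limiting step, had 12.6 against 109 (8.60-fold lower). On the export side, where LXR drives genes when sterols are plentiful, 2 of 10 genes were at least 2-fold higher and 3 were lower. These shares lay near the 17.6% and 26.5% of all genes measured. Under all 4 scalings 2 of the export genes were higher and 2 were lower. The higher ones were Mylip, a ubiquitin ligase that LXR induces, at 5.83 on the rested array against 0.553 on the Th1 array (10.5-fold), and Abcg1, a cholesterol exporter, at 16.7 against 3.62 (4.62-fold). The other probe of Mylip gave a log2 difference of 0.93. Scarb1, a receptor for HDL, was 8.48-fold lower and Srebf1 was 2.91-fold lower.

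SREBP-2 drives these genes through sterol response elements with NF-Y at CCAAT boxes. Of 17 matched genes of the list, 16 held a CCAAT box and all 16 were at least 2-fold lower. Of their 20 promoters, 16 (80.0%) held the box, against 37.4% of all promoters. The sterol element letters TCACNCCAC stood in 1 promoter (5%), against 1.24% of all. That promoter is Hmgcs1, at chr13:119690101-119690400 (plus strand), printed with the sterol element and the CCAAT boxes of both strands in capitals.
Hmgcs1: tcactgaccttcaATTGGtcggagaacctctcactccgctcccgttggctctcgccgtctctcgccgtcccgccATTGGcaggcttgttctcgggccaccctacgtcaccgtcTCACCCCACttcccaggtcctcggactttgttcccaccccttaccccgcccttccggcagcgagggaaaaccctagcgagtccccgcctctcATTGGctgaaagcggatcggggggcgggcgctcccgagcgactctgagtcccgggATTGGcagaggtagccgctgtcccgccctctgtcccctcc

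Fatty acid synthesis was less uniform. Of 14 genes, 8 were at least 2-fold lower on the rested array and 2 were higher, with a median of -1.21, and 5 were lower and none was higher under all 4 scalings. Scd1, a desaturase, had 0.246 on the rested array against 4.35 on the Th1 array (17.7-fold lower), and Scd2 was 5.16-fold lower. Acly, which makes cytosolic acetyl-CoA, was 3.22-fold lower, while Fasn, the fatty acid synthase, differed by -0.53 log2 units. Elovl7 and Acss2 were 3.21-fold and 2.35-fold higher. In fatty acid oxidation 6 of 20 genes were lower, a share near the 26.5% of all genes measured, and 1 was higher. Under all 4 scalings 2 were lower and 1 was higher. The higher one was Ppargc1a, a coactivator of mitochondrial genes, at least 4.85-fold higher because its Th1 signal was not well above background. Cpt1a, the entry step of oxidation, had 5.34 on the rested array against 2.86 on the Th1 array, a log2 difference of 0.90.

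Glycolysis was lower on the rested array in 15 of 21 genes and higher in 1, with a median of -1.69, and 12 were lower and none was higher under all 4 scalings. Hk2, the inducible hexokinase, had 0.436 on the rested array against 12.05 on the Th1 array (27.6-fold lower). Slc16a3, the lactate exporter MCT4, had 6.72 against 147 (21.9-fold lower). Tpi1 and Pgk1, enzymes of the middle of the pathway, were 12.6-fold and 8.57-fold lower. The abundant Ldha, lactate dehydrogenase A, had 431 on the rested array against 1306 on the Th1 array, 3.03-fold lower. Pdk1, which keeps pyruvate out of mitochondria, was the gene that stood higher, by 2.02-fold. Other hypoxia-inducible genes had 9 of 14 members lower and none higher (median -1.46, with 6 lower under all 4 scalings), led by Egln3, an oxygen sensor, at 2.43 against 69.9 (28.8-fold lower). Vegfa was 9.76-fold lower and Bnip3 was 5.99-fold lower.

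Amino acid supply followed the same direction, with 19 of 25 genes at least 2-fold lower on the rested array, none higher, a median of -2.01 and 16 lower under all 4 scalings. Psat1, of serine synthesis, had 2.45 on the rested array against 52.6 on the Th1 array (21.5-fold lower). Asns, asparagine synthetase and an ATF4 target, was 13.4-fold lower. Chac1, another ATF4 target, was at least 50.7-fold lower, and Gpt2 was at least 33.1-fold lower. The large neutral amino acid transporter Slc7a5 had 0.411 on the rested array against 7.22 on the Th1 array, a log2 difference of -4.13, but its other probe gave -0.86. Myc, which drives many of these genes, had 3.40 against 19.5 (5.74-fold lower), and its target Odc1, the first enzyme of polyamine synthesis, was 6.53-fold lower.

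The machinery of protein synthesis was not lower as one block. Of 76 cytosolic ribosomal protein genes, none was at least 2-fold higher and 1 was lower, with a median of -0.22, close to that of all genes. The one was Rps2, at 426 on the rested array against 1047 on the Th1 array (2.46-fold lower). Ribosome assembly was lower: 27 of 42 biogenesis genes were at least 2-fold lower and 1 was higher, with a median of -1.23, and 15 were lower and none was higher under all 4 scalings. Bysl and Gar1, factors of small subunit and snoRNP assembly, were 5.88-fold and 5.72-fold lower, and Wdr12 was 2.12-fold higher. Of 34 initiation and elongation factors, 22 were lower and none was higher, with 13 lower under all 4 scalings. Eif5a, the target of polyamine-derived hypusine, had 19.0 on the rested array against 139 on the Th1 array (7.32-fold lower), and the cap-binding gene Eif4e was 4.27-fold lower. Mitochondrial ribosomal proteins had 49 of 74 genes lower and none higher, with a median of -1.13. Under all 4 scalings only 13 were lower, a share near the 14.5% of all genes measured. Scaling to the 75th percentile of the detected probes gave this list a median of -0.60.

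The proteasome stood out for its narrow spread. Of 31 constitutive subunits, 29 were at least 2-fold lower on the rested array and none was higher, with a median of -1.46 and quartiles of -1.69 and -1.40. Under all 4 scalings 14 of the 31 were lower, and scaling to the 75th percentile of the detected probes gave a median of -0.94. Psmd1, a large regulatory subunit, had 8.55 on the rested array against 42.6 on the Th1 array (4.98-fold lower). Psmb6 and Psmb7, catalytic subunits that the immunoproteasome replaces, were 4.14-fold and 4.08-fold lower. MHC class I and antigen processing genes lay near zero by comparison under the main scaling, with 1 higher and 1 lower of 17 and a median of -0.01. Under all 4 scalings none of them was higher and 1 was lower. With spike-ins their median was -1.18, and 11 of the 17 were 2-fold lower and none was higher. Respiratory chain and ATP synthase subunits had 39 of 56 members lower and none higher, with a median of -1.31, but 14 were lower under all 4 scalings. Cycs, cytochrome c, had 24.6 against 146 (5.93-fold lower). The tricarboxylic acid cycle had 11 of 23 lower and none higher, with a median of -0.97. Under all 4 scalings 3 of these were lower, a share near the 14.5% of all genes measured. Chaperones and the unfolded protein response had 23 of 31 lower and none higher (median -1.62, with 19 lower under all 4 scalings). Xbp1, the transcription factor of that response, had 22.4 on the rested array against 188 on the Th1 array (8.39-fold lower), and the chaperone gene Sdf2l1 was 11.3-fold lower.

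Transcription factors that receptor signals induce were lower, with exceptions. Of 22 measured, 15 were at least 2-fold lower on the rested array and 2 were higher, with a median of -2.53, and 14 were lower under all 4 scalings. Nr4a1, the orphan receptor used as a reporter of receptor signal strength, had 0.718 on the rested array against 111 on the Th1 array (154-fold lower). Egr2 had 0.161 against 5.82 (36.2-fold lower), and Egr1 was at least 119-fold lower, with a rested signal not well above background. Irf4, which scales effector growth with receptor signal, had 4.23 against 121 (28.7-fold lower). Atf3, a stress-induced bZIP factor, was 24.3-fold lower. The calcium-dependent Nfatc1 was 2.17-fold higher, but its probes disagreed, with log2 differences between -0.59 and 1.12. Tox was 2.14-fold higher at 0.871 on the rested array against 0.406 on the Th1 array.

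Feedback regulators of the same pathways had 12 of 21 members at least 2-fold lower on the rested array and 3 higher, with a median of -1.27, or 8 and 1 under all 4 scalings. Dusp4, a MAP kinase phosphatase, had 0.221 on the rested array against 20.9 on the Th1 array (94.4-fold lower). Rgs16 and Rgs1, which shut off chemokine receptor signals, were 31.1-fold and 29.0-fold lower. The Sprouty genes, inhibitors of receptor tyrosine kinase and RAS signals, stood in opposite directions: Spry1 had 0.621 against 7.97 (12.8-fold lower), and Spry2 had 2.91 against 0.272 (10.71-fold higher). Dgka, a kinase that removes diacylglycerol and is high in unresponsive T cells, had 136 on the rested array against 39.8 on the Th1 array, 3.40-fold higher.

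Among activation markers and costimulatory receptors, 11 of 21 were at least 2-fold lower on the rested array and 3 were higher, with a median of -1.82, or 11 and 2 under all 4 scalings. Tnfrsf9, which encodes 4-1BB, had 0.366 on the rested array against 52.5 on the Th1 array, a log2 difference of -7.16, with -2.44 at its other probe. Tnfrsf4 (OX40) had 31.9 against 631 (19.8-fold lower), and Tfrc, the transferrin receptor of growing cells, was 18.6-fold lower. The 3 probes of Tfrc gave log2 differences between -4.22 and -2.51. Il2ra, the high-affinity IL-2 receptor chain, had 33.5 against 261 (7.78-fold lower). IL-2 was present in both cultures. Cd69 had 1.65 on the rested array against 3.12 on the Th1 array, which is under 2-fold. Cd27, a costimulatory receptor of naive and memory cells, was 4.49-fold higher, and Cd226 was at least 8.58-fold higher. Inhibitory receptors and their ligands had 7 of 14 members lower and 5 higher, or 7 and 1 under all 4 scalings. Lag3 had 0.283 against 16.3 (57.7-fold lower), the PD-1 ligand gene Pdcd1lg2 was 33.2-fold lower, and Pdcd1 and Ctla4 were 3.37-fold and 3.38-fold lower. Nt5e (CD73), which makes adenosine, was 4.73-fold higher on the rested array.

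Genes of the Th1 programme stood in both directions. Of 24 Th1 regulators and genes of the IFN-gamma axis, 10 were at least 2-fold lower on the rested array and 6 were higher, with a median of -0.48, or 9 and 3 under all 4 scalings. Ifng had 6.90 on the rested array against 1199 on the Th1 array (174-fold lower), and Tbx21, which encodes T-bet, had 18.7 against 85.7 (4.58-fold lower). Il12rb1, a chain of the IL-12 receptor, was 10.74-fold lower, and its partner Il12rb2 was 4.33-fold lower. On the other side stood Cxcr3, the chemokine receptor that T-bet induces, at 118 on the rested array against 3.23 on the Th1 array (36.5-fold higher). Cxcr6, another effector and tissue receptor, had 64.1 against 1.90 (33.7-fold higher). Il18r1, through which IL-18 drives IFN-gamma without the T cell receptor, had 44.2 against 5.46 (8.11-fold higher). Ccr2, an inflammatory homing receptor, was at least 38.7-fold higher, since its Th1 signal was not well above background.

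Cytokine genes had 10 of 19 members at least 2-fold lower on the rested array and 4 higher, with a median of -1.65, or 10 and 2 under all 4 scalings. Il21 had a signal not well above background on the rested array and 37.0 on the Th1 array (at least 327-fold lower), and Il10 was at least 28.1-fold lower. Tgfb3 had 0.385 against 16.7 (43.3-fold lower), and Lta, lymphotoxin alpha, was 15.8-fold lower. Il16, made constitutively by resting T cells, had 20.9 on the rested array against 3.90 on the Th1 array (5.36-fold higher), and Ebi3 was 4.70-fold higher. Chemokine genes had 5 of 7 measured members lower and 2 higher, or 5 and none under all 4 scalings. Ccl4 had 1.06 against 230 (217-fold lower) and Ccl3 was at least 307-fold lower. Ccl5, which memory T cells hold ready, went the other way, at 183 on the rested array against 78.2 on the Th1 array (2.34-fold higher).

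Of 19 granzyme and granule genes, 6 were at least 2-fold lower on the rested array and 3 were higher, shares near the 26.5% and 17.6% of all genes measured, and 4 and 1 held under all 4 scalings. Gzmb had 34.6 on the rested array against 722 on the Th1 array (20.8-fold lower), and Prf1, perforin, was 7.57-fold lower. Gzma had 29.7 against 2.04, which is 14.6-fold higher. Probes of granzyme genes, which resemble each other, may pick up related transcripts. For the cytokines that supply and polarise T cells, 10 of 25 receptor and signalling genes were lower and 4 were higher, or 6 and 2 under all 4 scalings. The share of higher genes in the main scaling lay near the 17.6% of all genes measured. Il6ra, which resting T cells carry, was 3.36-fold higher, and Il1r2, a decoy receptor, was 7.62-fold lower. Feedback inhibitors of cytokine signals had 4 of 8 members lower and none higher, with 1 lower under all 4 scalings. Cish, a STAT5 target, had 3.96 on the rested array against 69.7 on the Th1 array (17.6-fold lower), and Socs3 was 2.78-fold lower.

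Interferon-inducible families differed among themselves. The Ifi200 (PYHIN) family, nuclear proteins that bind DNA, had 7 of 9 members at least 2-fold higher on the rested array and 1 lower, with a median of 3.35, and 6 were higher under all 4 scalings. Ifi203 had 43.6 on the rested array against 0.163 on the Th1 array, the furthest apart of all genes in the higher direction with both signals well above background (268-fold). Its 4 probes gave log2 differences between 1.65 and 8.07. Ifi208 had 39.9 against 0.633 (63.1-fold higher) and Ifi214 had 11.1 against 0.243 (45.6-fold higher). Ifi205 went the other way, at 0.138 on the rested array against 0.959 on the Th1 array (6.96-fold lower). Because the members share sequence, a probe may report on more than its own gene.

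Type I interferon-stimulated genes were divided, with 12 of 33 at least 2-fold higher and 5 lower on the rested array and a median of 0.63. Rtp4, a chaperone of receptors, had 11.7 on the rested array against 0.136 on the Th1 array (85.6-fold higher). Ifit3, an antiviral effector, had 1.19 against 0.141 (8.47-fold higher), and Slfn1, a Schlafen gene of quiescent T cells, was 8.07-fold higher. Usp18 and Isg15, which act in the same ISG15 pathway, stood lower: Usp18 had 6.01 on the rested array against 39.5 on the Th1 array (6.58-fold lower), and Isg15 was 3.93-fold lower. Under all 4 scalings 3 of the genes were higher and 4 were lower. Over all genes measured 4.48% were higher and 14.5% were lower under all 4 scalings, so the share of lower genes lay near that of all genes. The GTPases that IFN-gamma induces had 5 of 18 members higher and 2 lower, or 1 and 2 under all 4 scalings. Both of the latter shares lay near those of all genes measured. IFN-gamma was blocked in the rested culture. Gbp6 was 4.52-fold higher, though its other probe gave a log2 difference of 0.88, while Gbp5 had 5.24 against 41.3 (7.89-fold lower) and Gbp2 had 23.7 against 166 (7.01-fold lower). The GBP genes are similar to each other, which makes single members uncertain. Among 9 interferon regulatory factors, Irf8 had 1.88 on the rested array against 122 on the Th1 array (65.2-fold lower), Irf7 was 3.69-fold higher, and besides Irf4 no other passed 2-fold. With spike-ins Irf7 was under 2-fold as well.

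The interferon-stimulated response element was searched as 2 GAAA blocks with 2 free bases between them, on both strands. It stood in 8 of 11 promoters (72.7%) of the Ifi200 family and in 16 of 31 (51.6%) of the type I list, against 3.44% of all promoters. In the type I list 4 of the 10 matched genes that were higher held it, as did 1 of the 2 that were lower. A promoter of Ifi203 at chr1:173942443-173942742 (minus strand), 1 of the 2 in the table, and that of Ifit3 at chr19:34583279-34583578 (plus strand) are shown with the element in capitals.
Ifi203: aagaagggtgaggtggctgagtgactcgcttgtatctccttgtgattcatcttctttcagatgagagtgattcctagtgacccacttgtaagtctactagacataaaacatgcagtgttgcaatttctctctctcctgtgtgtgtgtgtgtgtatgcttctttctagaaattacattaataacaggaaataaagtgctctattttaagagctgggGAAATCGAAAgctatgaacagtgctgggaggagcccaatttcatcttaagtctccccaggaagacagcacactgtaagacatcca
Ifit3: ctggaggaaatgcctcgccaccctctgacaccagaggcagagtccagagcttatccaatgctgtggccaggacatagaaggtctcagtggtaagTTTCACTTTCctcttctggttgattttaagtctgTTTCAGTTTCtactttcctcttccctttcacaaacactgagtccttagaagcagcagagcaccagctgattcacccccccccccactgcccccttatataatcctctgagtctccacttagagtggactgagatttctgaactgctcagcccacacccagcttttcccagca

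**Figure D3:**
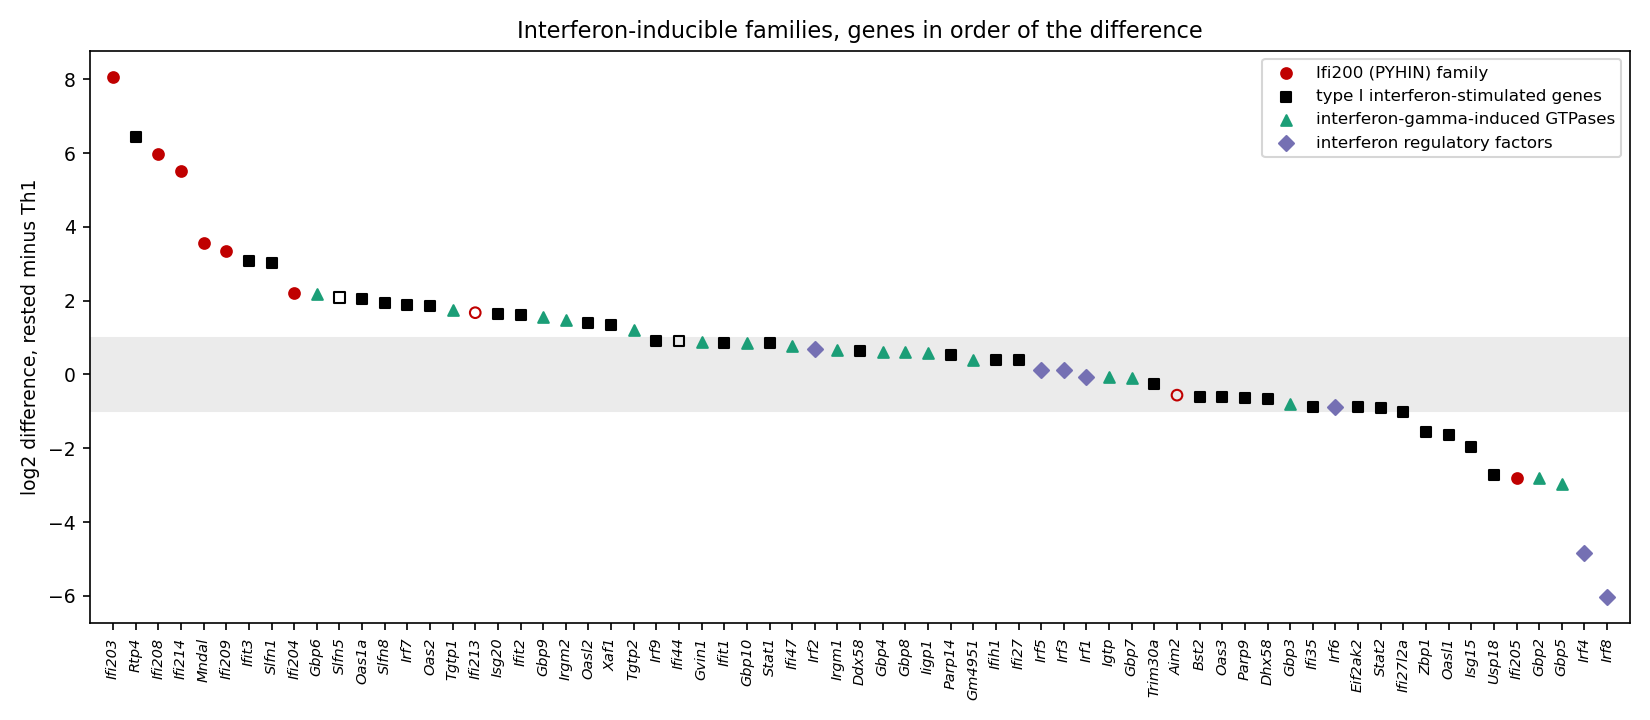
Log2 difference, rested minus Th1, of measured genes of the Ifi200 family, type I interferon-stimulated genes, IFN-gamma-induced GTPases and interferon regulatory factors, in order of the difference. Open symbols are bounds and the grey band marks less than 2-fold. Ifi203 (8.07) and Rtp4 (6.42) lie at the left end, and Irf4 (-4.84) and Irf8 (-6.03) at the right end.

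Integrin subunits had 9 of 15 members at least 2-fold higher on the rested array and 4 lower, with a median of 1.36. With spike-ins 3 were higher and 6 were lower, with a median of 0.19. Itga4, the alpha chain of VLA-4, had 21.2 on the rested array against 1.15 on the Th1 array (18.5-fold higher). Its other probe gave a log2 difference of 2.70. Itgb3 was 5.31-fold higher. Itga3 was 10.2-fold lower. In cAMP signalling, which restrains T cells, 7 of 20 genes were higher and 4 were lower, or 4 and 2 under all 4 scalings. Pde2a, a phosphodiesterase that cGMP activates, had 118 on the rested array against 1.91 on the Th1 array (61.7-fold higher), and Pde3b, another phosphodiesterase, was 5.57-fold higher. Crem, a repressor at cAMP response elements, was 6.76-fold lower.

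Survival genes were mixed. Of 15 BCL-2 family genes, 2 were at least 2-fold higher on the rested array and 8 were lower, with a median of -1.04, or 1 and 4 under all 4 scalings. The higher ones encode the killers PUMA and BMF, with Bbc3 at 39.99 on the rested array against 8.16 on the Th1 array (4.90-fold) and Bmf at 1.58 against 0.402 (3.93-fold). Bcl2l1, which encodes the protector BCL-XL, was 6.82-fold lower and Bcl2 was 3.18-fold lower. Mcl1 differed by 0.61 log2 units, with -0.48 at its other probe. In the chromatin list 2 of 18 genes were higher and 6 were lower, or none and 4 under all 4 scalings. Over all genes measured 17.6% were higher and 26.5% were lower, so the list lay near those shares. The polycomb methyltransferases stood in opposite directions: Ezh1, of resting cells, had 50.1 against 15.9 (3.16-fold higher), and Ezh2, of dividing cells, had 3.31 against 20.1 (6.06-fold lower). The maintenance DNA methylation genes Uhrf1 and Dnmt1 were 14.1-fold and 6.21-fold lower.

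In the TGF-beta pathway 4 of 16 genes were higher and 4 were lower, or 1 and 4 under all 4 scalings. Over all genes measured 17.6% were higher and 26.5% were lower, or 4.48% and 14.5% under all 4 scalings. Tgfbr2, the ligand-binding receptor, had 42.3 on the rested array against 9.14 on the Th1 array (4.63-fold higher), with 1.02 log2 units at its other probe. Smad3, which carries the signal of that receptor, was 3.17-fold higher, with 0.96 log2 units at its other probe. Pmepa1, a feedback gene that TGF-beta induces, was 4.30-fold lower. Foxp3 signal was dim on the rested and the Th1 array alike. The Treg signature had 8 of 12 measured members lower and 3 higher, or 4 and 1 under all 4 scalings, and Il2ra, Tnfrsf18 (5.01-fold lower) and Ctla4 among the lower ones are activation genes as well. Factors of other helper lineages included Gata3, the Th2 regulator, at 9.23 on the rested array against 1.21 on the Th1 array (7.61-fold higher), and Il4 and Il13 were dim on both arrays.

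Outside the lists, the largest differences named genes of other kinds. Cd7, a surface receptor of T cells, had 20.9 on the rested array against 0.367 on the Th1 array (57.1-fold higher), and S100a4, a calcium-binding protein of memory T cells, had 80.9 against 1.82 (44.4-fold higher). Ifit1bl1 had 11.6 on the rested array and a Th1 signal not well above background (at least 147-fold higher), and Armc3 was at least 107.2-fold higher. In the lower direction Crabp2, a carrier of retinoic acid, had 0.652 on the rested array against 292 on the Th1 array (447-fold lower). Slc4a11, a membrane transporter, was 261-fold lower, and Tgm2, tissue transglutaminase, was 118-fold lower. Serpinb5, a serpin, had 0.838 against 115 (138-fold lower), and Timp1, an inhibitor of metalloproteinases, was at least 367-fold lower. Sema7a, a semaphorin of activated T cells, was 117-fold lower, and Gem, a small GTPase, was 96.9-fold lower.

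The other cultures of the study all had anti-CD3/CD28 in their last step, and their levels place the rested array. Of the 1914 genes lower under all 4 scalings, 1532 (80.0%) had their lowest level of the 5 arrays on the rested array, and of the 593 higher ones 527 (88.9%) had their highest there. Over all genes measured these shares were 33.1% and 26.4%, and since the genes were chosen for their level on the rested array, the higher shares are in part fixed by that choice. With the rank required under all 4 scalings, 1466 of the 1914 and 240 of the 593 kept it. The 593 genes were also raised on some stimulated arrays. Their median relative to Th1 was 1.52 on Th1+TGFb, 1.14 on iTreg and -0.19 on Th1reg, against 2.49 on rested. The rested array was the lowest of the 5 in 33 of 36 mitotic genes, 23 of 24 cholesterol genes, 30 of 31 proteasome subunits and 11 of 76 cytosolic ribosomal proteins. The Th1reg culture, which was rested and then stimulated again, had a median of 0.26 log2 units relative to Th1 over the mitotic list, against -3.39 for rested, and 0.06 over the cholesterol list, against -2.85. These medians share the Th1 array. Nr4a1 had 0.718 on the rested array, between 97.4 and 167 on the Th1+TGFb, Th1reg and iTreg arrays, and 111 on the Th1 array. Hmgcs1 had 12.6 on the rested array and between 37.4 and 143 on those arrays, with 109 on the Th1 array. Klf2 was not particular to rest in these cultures, since it had 57.3 on the iTreg array and 51.5 on the rested array, while Th1+TGFb (0.847), Th1reg (0.559) and Th1 (1.44) were low. Other genes named above as higher on the rested array were also higher on a stimulated array than at rest. Klf3 had 23.7 and Nt5e 26.2 on iTreg, against 15.97 and 2.17 on rested. On Th1+TGFb Gzma had 1670, Ccl5 had 854 and Cxcr6 had 80.3, against 29.7, 183 and 64.1 on rested. Bcl6 had 11.9 on Th1+TGFb against 9.76 on rested. Under the main scaling Tcf7 had its highest level at rest, with 18.2 on the rested array, 6.72 on iTreg, 3.91 on Th1+TGFb, 0.603 on Th1reg and 1.31 on Th1. Cxcr3 stayed high after restimulation, at 118 on the rested array, 50.8 on Th1reg, 9.18 on Th1+TGFb, 1.71 on iTreg and 3.23 on Th1. With spike-ins Tcf7 on the rested array was level with iTreg, and Cxcr3 was slightly higher on Th1reg than on the rested array.

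**Figure D4:**
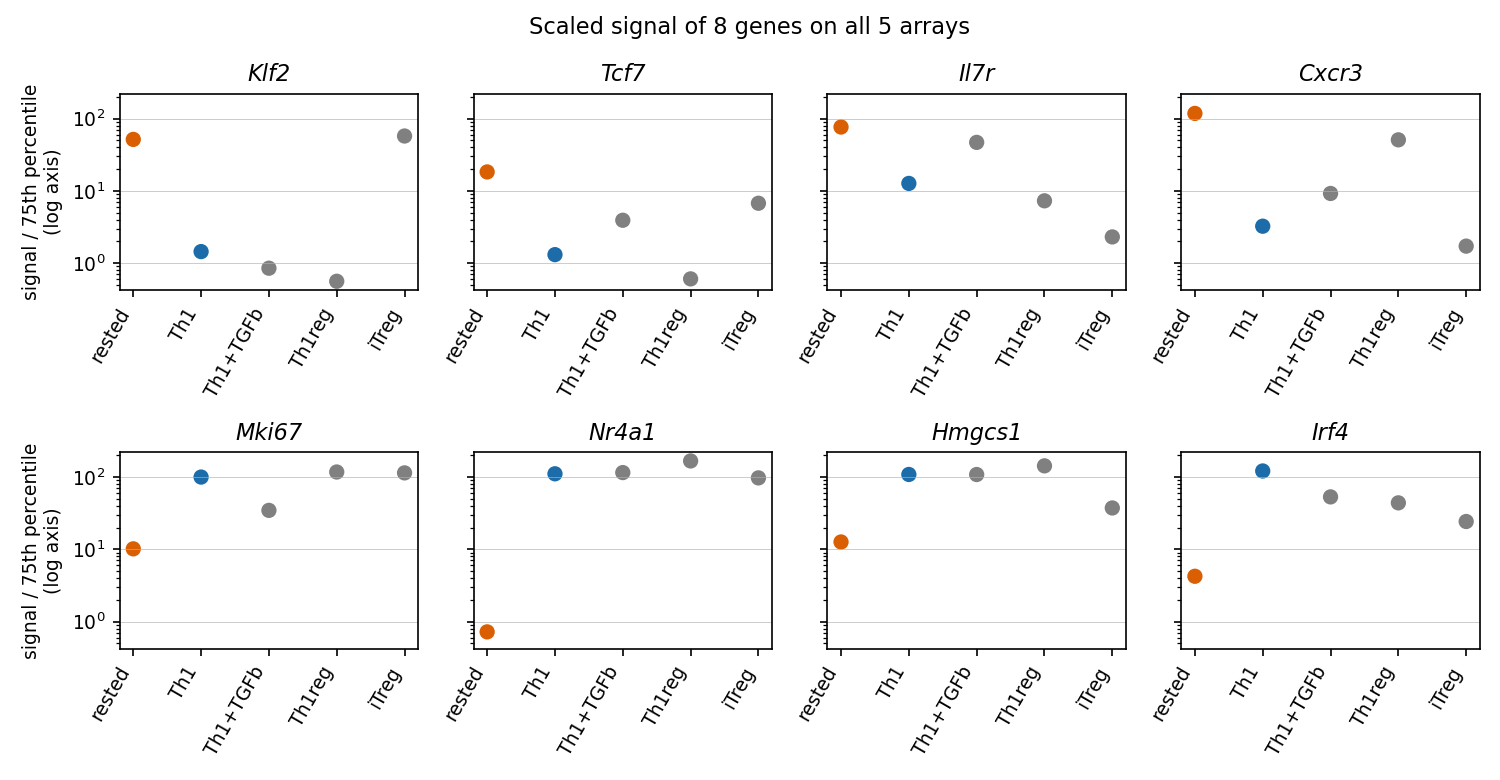
Scaled signal of 8 genes on each of the 5 arrays (log axis, 1 array per point), with rested in orange, Th1 in blue and the other cultures in grey. Mki67, Nr4a1, Hmgcs1 and Irf4 have their lowest point on the rested array, and Tcf7, Il7r and Cxcr3 their highest under this scaling, while Klf2 is as high on the iTreg array (57.3). With spike-ins the rested array does not stand above all others for Tcf7, Il7r and Cxcr3.

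Markers of other cells were measured beside these results. Of 10 B cell markers, 6 were measured and 4 were at least 2-fold higher on the rested array, with a summed scaled signal of 6.39 on the rested array and 1.83 on the Th1 array. The higher ones were Cd79b (at least 7.53-fold), Cr2 (4.77-fold), Cd22 (4.00-fold) and Ms4a1 (3.87-fold). Cd79a, Pax5 and Blk were dim on both arrays. Of 16 matched myeloid and dendritic markers, 10 were measured and 6 were higher, with a summed signal of 1734 on the rested array and 552 on the Th1 array, nearly all of it from Siglech, Csf3r and Itgam, which were bright on all 5 arrays. Fcgr3 and Itgax were at least 7.88-fold and at least 2.56-fold higher on the rested array, with Th1 signals not well above background, and none of the list was 2-fold lower. Lyz1, Lyz2, S100a8, S100a9, Mpo and Flt3 were dim on both arrays. Of 10 CD8 T and NK markers, 7 were measured, 4 were higher and 2 were lower, with a summed signal of 29.7 on the rested array and 11.3 on the Th1 array, while Cd8a, Klrb1c and Ncr1 were dim on both arrays. Of 6 matched gamma-delta and erythroid markers 1 was measured, and it lay within 2-fold. The part of other cells in the results was not tested.

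The direction of the middle-sized differences rests on the scaling. The rested array had the lower 75th percentile of signal, 144 against 240 on the Th1 array, and its spike-ins were brighter. Scaling on spike-ins moved the differences of genes well above background on both arrays by -1.17 log2 units, and scaling on the probes detected on all arrays moved them by 0.53 (75th percentile) or 0.25 (median). A bound that such a shift would carry past 0 was set to 0. Genes higher on the rested array made up 39.9% of the 2-fold genes in the main scaling, 65.6% and 52.7% with the detected probes, and 6.43% with spike-ins. The median of the quiescence factors was -0.33 with spike-ins, that of the FOXO targets -0.56 and that of the type I interferon list -0.54, while the Ifi200 family kept 2.18. The medians of the mitotic list (-4.56 to -2.86), the cholesterol list (-4.02 to -2.33) and the receptor-induced factors (-3.70 to -2.01) were below -1 under every scaling. Ribosomal proteins had medians between -1.38 and 0.31 across the scalings.

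**Figure D5:**
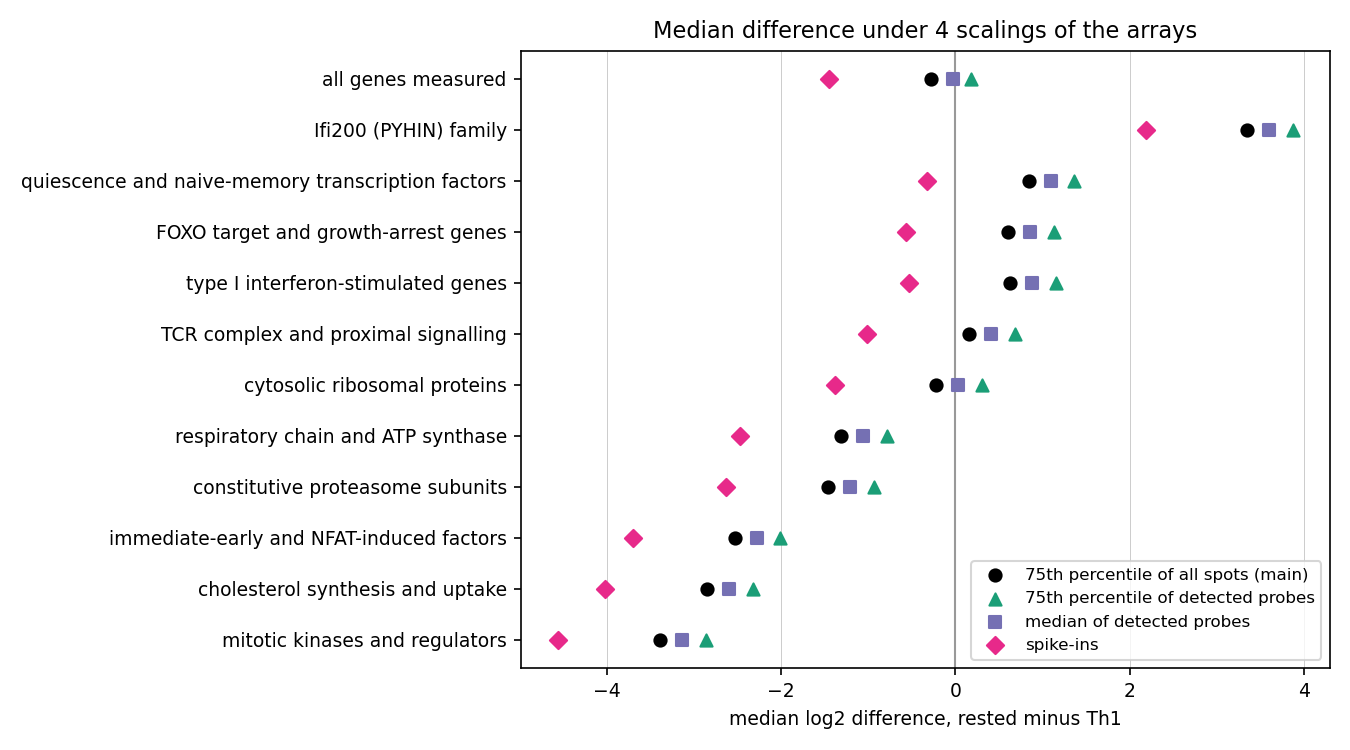
Median log2 difference, rested minus Th1, of all genes measured and of several lists under 4 scalings of the arrays. Spike-in scaling (pink diamonds) lies 1.17 log2 units to the left of the main scaling (black circles), which takes the quiescence, FOXO and type I interferon lists below 0 and leaves the Ifi200 family above it.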

How the data were processed

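RNA of each culture was hybridised to 1-colour Agilent mouse arrays, 5 arrays on 1 slide. The deposited scanner files hold intensity values that the authors made with Feature Extraction 10.7.1.1, per the file headers, which also name the mm9 build. The deposited value table holds linear intensity values of the same arrays, with a 75th percentile near 1 and medians of 0.123 (rested) and 0.0762 (Th1). It was proportional to the scanner values within 0.01 log2 units for 99.7% of probes and served as an alternative. The sources used here do not state how the authors made it. Total RNA was labelled with Cy3, per the labels' protocols.

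Processed signals of 59305 non-control spots were divided by the 75th percentile of each array (144 rested, 240 Th1), spots flagged as outliers were left out, and repeat spots of a probe were averaged. Probes were named through RefSeq accessions, which gave 28331 of 55681 probes 1 of 21368 genes. A gene with several probes took the probe with the highest mean log2 signal over all 5 arrays, and 89.4% of the other measured probes of the 2-fold genes went the same way. A signal that was not well above background was replaced, where it lay lower, by the lowest signal well above background on that array (scaled 0.113 rested, 0.0792 Th1), which makes the difference a bound. The 2-fold threshold stood in for a test. Precision is limited by the number of arrays, 1 per culture. Alternatives were 3 other scalings, normexp in limma 3.58.1 with an offset of 50 (R 4.3.3), the deposited table, no floor, genes detected on both arrays, and the mean of the probes. Normexp took median in place of mean signals, which the files used here do not hold. The other steps ran in Python 3.11.15 with pandas 2.3.3 and numpy 2.4.6, and the differences and bounds were tested on simulated data.

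The comparison, the gene lists and the genes named were chosen with earlier results of these data known. Named were a set of key genes, in each list the 4 members furthest apart with both signals well above background, up to 2 with the largest bounds and up to 3 at least 2-fold apart against the list's median, and over all genes the 12 largest differences and 6 largest bounds each way. Genes named outside the rule, in the lists of markers of other cells and for promoters, were chosen after their values were seen.

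Some members of the lists are not reported here by name.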

Additional observations from a re-analysis of the deposited data

How the results depend on the processing

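No paired analysis was possible because each group had 1 array, and no culture could be left out. The number of genes at least 2-fold higher on the rested array, 2322, was 3648 with the 75th percentile of the detected probes, 593 with spike-ins, 1267 with normexp and 3944 without the floor. The number of lower genes, 3502, was 1914 with the 75th percentile of the detected probes and 8626 with spike-ins. Under the 75th percentile of detected probes, their median, spike-ins and normexp in turn, the median of the quiescence factors was 1.37, 1.09, -0.33 and 0.64, that of the receptor-induced factors -2.01, -2.28, -3.70 and -2.29, that of the mitotic list -2.86, -3.14, -4.56 and -2.98, and that of the cholesterol list -2.33, -2.60, -4.02 and -2.40. Without the floor the quiescence median was 0.74. With genes detected on both arrays alone the receptor-induced factors had -2.68, and with the mean of the probes the cholesterol list had -2.72. The chemokine ligand median, -3.40, turned to 1.22 with genes detected on both arrays alone and to 0.45 without the floor. Spike-in scaling turned Rasgrp1 (-0.17), Nfatc1 (-0.05), Tox (-0.07), Lif (-0.07), Gzmm (-0.01), Cdkn2b (-0.00), Pdk1 (-0.15) and Wdr12 (-0.08), which were at least 2-fold higher in the main scaling, below 0. Among named genes under 2-fold it did so for Foxo1 (-0.22), Bach2 (-0.50), Cpt1a (-0.27), Mcl1 (-0.55), Cd44 (-1.02), Cd4 (-0.86) and Cd3e (-1.01), and the 75th percentile of detected probes turned Ccr7 to 0.41. The shifts between scalings follow from dividing each array by another number. Other causes were not tested. Signals not well above background give bounds only. Signals just above that mark give folds that depend on how background is treated. With normexp Egr2, at 0.161 on the rested array, had a log2 difference of -3.37 in place of -5.18. Ifi203, at 0.163 on the Th1 array, had 6.28 in place of 8.07. Ifng, brighter on both arrays, had -7.55 in place of -7.44.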
